A study of Homo sapiens with 10 samples.

Results

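The annexins are proteins that bind negatively charged phospholipids when calcium rises. The family members described here are ANXA1, ANXA2, ANXA3, ANXA4, ANXA5, ANXA6, ANXA7, ANXA8, ANXA9 and ANXA11, each found by its gene symbol in the deposited count table. Each symbol stood on a single row, so the 10 genes are 10 of 60898 rows, and all 10 passed the filter on low counts. The RNA came from neural progenitor cells (NPCs) of the H1 background, a long-established line of human embryonic stem cells. There were 5 groups of 2 libraries. KO1 and KO2 are STAMBP knockout cells, KO+STAMBP is knockout cells given STAMBP, KO+CFLAR is knockout cells given CFLAR, and WT is the unedited line. STAMBP encodes a deubiquitinase of the endosomal sorting machinery, and CFLAR encodes an inhibitor of caspase-8 activation. The series asked what loss of STAMBP changes in these progenitors and how far either construct restores expression. The labels do not say whether KO1 and KO2 are single clones, which knockout line received a construct, what drives the constructs, or whether replicate libraries are separate cultures. All p-values below rest on the spread between libraries, and that spread may be technical.

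Annexins share a conserved core of repeats that docks on membranes in the presence of calcium, and they differ mainly in their amino-terminal tails, which bind other proteins. They take part in membrane repair, vesicle traffic, the anchoring of actin to membranes and the control of inflammation. Several are abundant in epithelia and mesenchymal cells. In the nervous system ANXA1 is known mainly from microglia, and labelled ANXA5 is used to find dying cells.

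The libraries held 16495116 to 20832700 counts, so 3 counts, taken as the floor, equal 0.144 to 0.182 counts per 1000000 counts (CPM) in a library. The targeted gene STAMBP was at 18.1 and 15.6 CPM in KO1, 17.6 and 17.2 CPM in KO2, 43.1 and 48.3 CPM in KO+STAMBP, 45.3 and 42.4 CPM under the KO+CFLAR label and 45.2 and 49.0 CPM in WT. It was lower in the knockout than in WT by edgeR's quasi-likelihood test, with a log2 fold change of -1.28 ± 0.07 (SE, adjusted p = 6.7e-10). In the libraries labelled KO+CFLAR the targeted genes went against the label, since STAMBP differed from WT by -0.13 ± 0.08 (adjusted p = 0.236) and CFLAR by -0.08 ± 0.07 (adjusted p = 0.418) on the log2 scale. CFLAR was higher in the knockout than in WT, by 2.98 ± 0.05 (adjusted p = 1.28e-15). The summed level of 10 NPC markers was 3123 to 3198 CPM in the knockout, 4226 to 4232 CPM in KO+STAMBP, 4337 to 4395 CPM in the libraries labelled KO+CFLAR and 7879 to 7951 CPM in WT, and none of the 10 was at 0 in a whole group. Most of the knockout sum was VIM, at 2080 CPM, and NES, at 608.2 CPM. By the test 8 of the 10 were lower and 1 higher in the knockout than in WT, with a median log2 fold change of -2.99, and PTPRZ1 averaged 3.42 CPM in the knockout and 1958 CPM in WT. The summed level of 10 epithelial markers was 7520 to 7878 CPM in the knockout, 64.9 to 67.7 CPM in KO+STAMBP, 56.3 to 58.6 CPM in the libraries labelled KO+CFLAR and 32.9 to 34.7 CPM in WT. All 10 epithelial markers were higher in the knockout. Over all genes tested, 36.8% were called higher and 39.4% lower in the knockout than in WT, which applies to each marker count here. The summed level of 8 neural crest and mesenchyme markers was 1911 to 1995 CPM in the knockout, 102.5 to 108.9 CPM in KO+STAMBP, 81.6 to 81.8 CPM in the libraries labelled KO+CFLAR and 82.1 to 87.7 CPM in WT, with FOXD3 at 0 in KO+STAMBP and WT and PDGFRA at 0 under the KO+CFLAR label. The collagen genes COL1A1 and COL1A2 made up most of the knockout sum, at 948.6 and 960.0 CPM, and of 6 crest and mesenchyme markers tested 4 were higher and 1 lower. Neuron markers, 8 in number, summed to 755.1 to 779.5 CPM in the knockout, 5719 to 5776 CPM in KO+STAMBP, 5724 to 5835 CPM in those labelled KO+CFLAR and 3650 to 3749 CPM in WT. Markers of pluripotent cells summed to 21.27 to 24.75 CPM in the knockout and 2.24 to 3.20 CPM in WT. Those of blood cells summed to 20.09 to 23.68 CPM in the knockout and 1.52 to 1.82 CPM in WT. Those of endothelium summed to 26.68 to 28.22 CPM in the knockout and 8.55 to 8.64 CPM in WT. Astrocyte markers went the other way, at 0.903 to 1.16 CPM in the knockout and 35.6 to 36.7 CPM in WT. These marker sums differed between the same groups as the annexins did, and their part in the annexin results was not tested. In bulk RNA, a change in the number of cells of a type and in the RNA per cell cannot be told apart.

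Loss of STAMBP went with higher transcript levels of 9 of the 10 annexins and a lower level of ANXA6. Of the 9, ANXA8 and ANXA9 passed the filter only through the knockout libraries, so their calls were close to fixed in advance. Over the 21063 genes tested, 36.8% were called higher and 39.4% lower in the knockout than in WT, with a median log2 fold change of -0.04. The median over the 10 annexins was 4.16, also with ANXA8 and ANXA9 set at the floor of 3 counts in WT. The counts of 9 higher and 1 lower held when KO1 and KO2 were each set against WT alone, where 35.6% and 35.8% of all genes were called higher and 37.3% were called lower in both. Both comparisons use the same WT libraries and the same fit, so they are not independent of each other. Together the annexins summed to 4727 ± 76.3 CPM in the knockout (SD, n = 4), 333.1 ± 4.1 CPM in KO+STAMBP, 302.8 ± 10.3 CPM in the libraries labelled KO+CFLAR and 474.7 ± 12.5 CPM in WT (SD, n = 2 each). As a share of all counts this was 0.462% to 0.479% in the knockout, against 0.0466% to 0.0483% in WT.

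**Figure D1:**
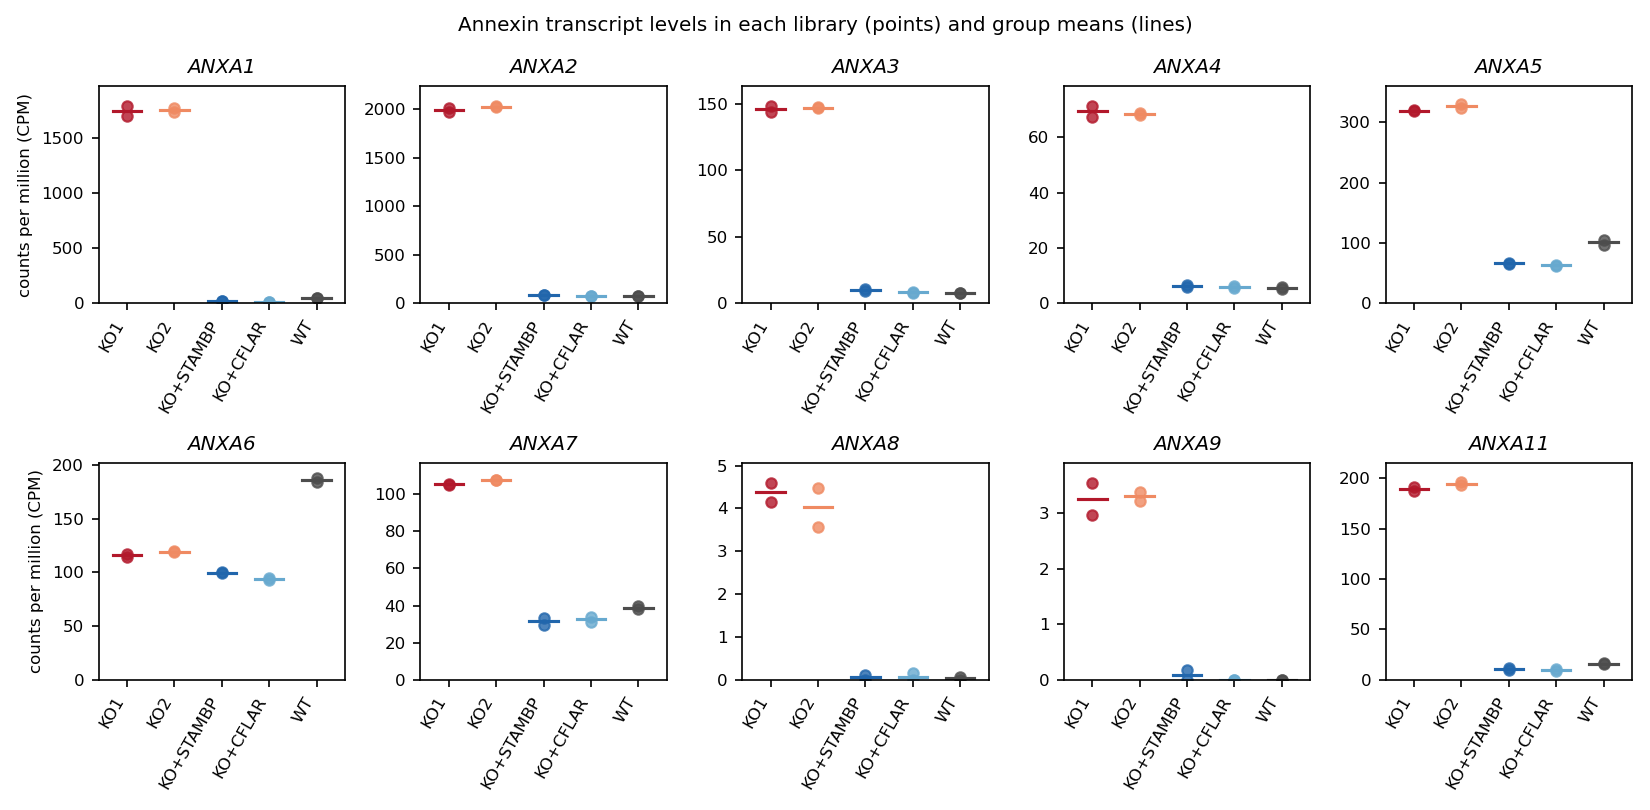
Level of each annexin in CPM (vertical axes, which start at 0 and differ in scale) in the 10 libraries, with knockout and rescue groups left of WT. Points are libraries and lines are group means of 2 libraries. The KO1 and KO2 points lie above every other library for each gene except ANXA6, where the WT points are highest. Over all genes tested, 36.8% were called higher and 39.4% lower in the knockout than in WT. The share of all genes whose libraries separate in this way was not counted.

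The annexins that act in the control of inflammation and at the cell surface showed the highest counts in the knockout. ANXA1 (ENSG00000135046, chromosome 9, 73151757 to 73170393, plus strand, in GENCODE 29 on GRCh38, as for all genes below) is a protein induced by glucocorticoids that dampens inflammation through formyl peptide receptors. Its level was 1706 and 1794 CPM in KO1 and 1742 and 1779.8 CPM in KO2, against 44.7 and 49.4 CPM in WT. The knockout libraries were all far above the WT libraries, by 42.1-fold (log2 5.39 ± 0.05, SE, adjusted p = 8.94e-19). ANXA2 (ENSG00000182718, chromosome 15, 60347134 to 60402883, minus strand) forms a complex with S100A10 that gathers plasminogen and its activator at the cell surface. Its level was 1968 and 2015 CPM in KO1 and 2021 and 2033 CPM in KO2, against 73.7 and 72.5 CPM in WT. Again the groups were wide apart, by 31.1-fold (log2 4.96 ± 0.05, adjusted p = 1.71e-18).

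ANXA3, ANXA4 and ANXA5 rose by unequal amounts. ANXA3 (ENSG00000138772, chromosome 4, 78551519 to 78610451, plus strand) is known from neutrophil granules. Its level was 144.2 and 148.5 CPM in KO1 and 146.5 and 147.6 CPM in KO2, against 7.58 and 7.42 CPM in WT, a 22.1-fold difference (log2 4.47 ± 0.06, adjusted p = 9.44e-17). The 4 knockout libraries spanned a narrow range above both WT libraries. ANXA4 (ENSG00000196975, chromosome 2, 69644425 to 69827100, plus strand) is an annexin of epithelial membranes. Its level was 67.1 and 71.4 CPM in KO1 and 68.0 and 68.8 CPM in KO2, against 5.76 and 5.08 CPM in WT, a 14.4-fold difference (log2 3.85 ± 0.08, adjusted p = 7e-15). No knockout library came near the WT libraries. ANXA4 overlaps AAK1 on the opposite strand over 29925 bases, and with no stated strand setting reads in that stretch cannot be told apart. ANXA5 (ENSG00000164111, chromosome 4, 121667955 to 121697113, minus strand) coats exposed phosphatidylserine and is the standard probe for apoptotic cells. Its level was 318.1 and 320.3 CPM in KO1 and 324.0 and 329.3 CPM in KO2, against 97.1 and 104.3 CPM in WT. The groups did not overlap, but the difference was only 3.62-fold (log2 1.86 ± 0.04, adjusted p = 5.25e-15).

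ANXA7 and ANXA11 have long amino-terminal tails and bind penta-EF-hand proteins. ANXA7 (ENSG00000138279, chromosome 10, 73375101 to 73414076, minus strand), also called synexin, promotes membrane fusion and binds sorcin. Its level was 105.2 and 105.8 CPM in KO1 and 107.6 and 107.4 CPM in KO2, against 38.0 and 39.9 CPM in WT. The knockout libraries were all higher, by 3.09-fold (log2 1.63 ± 0.05, adjusted p = 1.22e-12), the smallest rise of the 9. ANXA11 (ENSG00000122359, chromosome 10, 80150889 to 80205572, minus strand) tethers RNA granules to lysosomes and binds PDCD6. Its level was 187.6 and 191.0 CPM in KO1 and 196.1 and 193.3 CPM in KO2, against 15.3 and 17.0 CPM in WT. The groups did not overlap and differed 13.4-fold (log2 3.74 ± 0.07, adjusted p = 1.33e-15).

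ANXA8 and ANXA9 were close to or below the floor outside the knockout. ANXA8 (ENSG00000265190, chromosome 10, 47460162 to 47484158, minus strand) is known from stratified epithelia. It had 90 and 69 counts in KO1 and 59 and 85 counts in KO2, against 1 and 0 counts in WT. The knockout to WT ratio of CPM was 153 with a 95% exact interval of 27.3 to 6065, which covers counting error only. ANXA9 (ENSG00000143412, chromosome 1, 150982017 to 150995634, plus strand) is an atypical annexin that has lost its calcium-binding residues. It had 58 and 59 counts in KO1 and 56 and 61 counts in KO2, against 0 counts in both WT libraries. Set against a floor of 3 counts over the WT group, this was at least 39.4-fold higher. Both genes were called higher in the knockout by edgeR's quasi-likelihood test, with adjusted p = 3.23e-07 for ANXA8 and 1.17e-06 for ANXA9. They passed the filter on low counts only through the knockout libraries, so calls in this direction were close to fixed in advance.

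ANXA6 (ENSG00000197043, chromosome 5, 151100712 to 151157882, minus strand) went the other way. It carries extra core repeats and acts on endosomes, cholesterol transport and membrane repair. Its level was 114.7 and 117.3 CPM in KO1 and 118.9 and 119.7 CPM in KO2, against 183.8 and 187.9 CPM in WT. All 4 knockout libraries were below both WT libraries, with a log2 fold change of -0.48 ± 0.03 (adjusted p = 4.91e-09). That value is on the scale of the TMM factors; with library size alone the log2 fold change was -0.66, while the median of all genes then moved to -0.22 and the share of called genes that were higher to 41.3%, against 48.3%.

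The 250 bases before the RefSeq gene start (build GRCh38.p14) are printed for 3 genes: the pair with the highest counts in the knockout, ANXA1 and ANXA2, and the one gene that fell, ANXA6. Capitals mark matches on either strand to 4 motifs. The motif searched as the core promoter box that binds TBP was TATAAA. The GC box that binds SP1 was searched as GGGCGG. The NF-Y box was searched as CCAAT. The element bound by AP-1 factors was searched as TGANTCA. The stretches are chr9:73151615-73151864 (plus strand), chr15:60397987-60398236 (minus strand) and chr5:151157780-151158029 (minus strand), each read 5′ to 3′ towards the gene. GENCODE 29 places gene bounds differently: the ANXA2 stretch lies wholly within the GENCODE bounds of the gene, and those of ANXA1 and ANXA6 reach into them.
ANXA1: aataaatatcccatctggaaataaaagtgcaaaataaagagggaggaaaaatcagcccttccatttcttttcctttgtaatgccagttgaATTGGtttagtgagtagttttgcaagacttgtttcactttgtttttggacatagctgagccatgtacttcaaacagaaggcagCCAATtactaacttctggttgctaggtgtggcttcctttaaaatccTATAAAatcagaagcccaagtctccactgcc
ANXA2: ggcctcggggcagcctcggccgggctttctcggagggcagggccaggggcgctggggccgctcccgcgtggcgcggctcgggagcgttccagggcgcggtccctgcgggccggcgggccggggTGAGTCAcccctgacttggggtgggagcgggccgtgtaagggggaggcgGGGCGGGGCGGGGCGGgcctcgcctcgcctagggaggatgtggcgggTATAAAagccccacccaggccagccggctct
ANXA6: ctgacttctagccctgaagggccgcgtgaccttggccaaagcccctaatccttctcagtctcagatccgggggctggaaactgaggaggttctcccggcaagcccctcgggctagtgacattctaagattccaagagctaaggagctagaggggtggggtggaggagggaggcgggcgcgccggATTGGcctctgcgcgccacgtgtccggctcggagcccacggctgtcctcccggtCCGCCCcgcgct
ANXA1 and ANXA2 both held TATAAA starting 31 bases before the gene start, and ANXA6 had no TATAAA in this window. ANXA2 also held TGANTCA and a run of overlapping GC boxes. Of the 9 annexins with a promoter entry, 3 held TATAAA anywhere in the window, against 10.7% of 35116 RefSeq promoters. The third was ANXA11, where the match started 61 bases before the gene start and not 31. TGANTCA was in 1 of 9, against 6.57% of all promoters. GGGCGG was in 5 of 9 and CCAAT in 3 of 9, against 42.6% and 32% of all. CATTCC, the core bound by TEAD factors, was in 0 of 9, against 11.9% of all, and AGAACA, a motif of the glucocorticoid receptor, was in 1 of 9, against 12.4%. A match describes the letters only, and ANXA8 was not searched.

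Knockout cells given STAMBP had lower levels of all 10 annexins than the knockout libraries. The calls of ANXA8 and ANXA9, which passed the filter only through the knockout libraries, were again close to fixed in advance. Of all genes tested, 37.8% were called lower and 40.1% higher in this comparison, with a median log2 fold change of 0.04, while the annexin median was -4.22. ANXA1 was at 21.5 and 21.8 CPM in KO+STAMBP, against 1706 to 1794 CPM in the knockout, a log2 fold change of -6.56 ± 0.05 (adjusted p = 4.94e-19). ANXA2 was at 84.1 and 88.3 CPM, against 1968 to 2033 CPM in the knockout (-4.76 ± 0.05, adjusted p = 2.18e-18). Neither rescue library came near the knockout range for these genes. ANXA11 was at 11.5 and 10.1 CPM in KO+STAMBP, against 187.6 to 196.1 CPM in the knockout (-4.36 ± 0.07, adjusted p = 5.2e-16). The epithelial annexin ANXA4 averaged 6.42 CPM in KO+STAMBP and 68.8 CPM in the knockout (-3.63 ± 0.08), and ANXA3 changed by -4.08 ± 0.06. ANXA5 averaged 66.6 CPM in KO+STAMBP and 322.9 CPM in the knockout, a smaller log2 fold change of -2.49 ± 0.04. ANXA7 averaged 31.5 CPM in KO+STAMBP and 106.5 CPM in the knockout (-1.97 ± 0.06). ANXA8 had 2 and 0 counts in KO+STAMBP against 303 counts over the 4 knockout libraries, a knockout to KO+STAMBP ratio of 75.5 (95% exact interval 20.7 to 626.6). ANXA9 had 0 and 3 counts against 234 counts, a ratio of 38.9 (13.2 to 190.0).

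The libraries labelled KO+CFLAR also had lower levels of all 10 annexins than the knockout libraries, with the same limit for ANXA8 and ANXA9. Here 38% of all genes were called lower and 40% higher, the median over all genes was 0.04, and the annexin median was -4.45. This comparison and the previous one share the 4 knockout libraries. ANXA1 was at 16.2 and 15.6 CPM in the libraries labelled KO+CFLAR, against 1706 to 1794 CPM in the knockout (-6.98 ± 0.05, adjusted p = 3.55e-19). ANXA2 was at 70.0 and 78.4 CPM, against 1968 to 2033 CPM in the knockout (-4.96 ± 0.05, adjusted p = 1.4e-18). Both libraries lay far below the knockout range. ANXA8 had 3 and 0 counts, which gave a knockout to KO+CFLAR ratio of 58.0 (19.7 to 282.9). ANXA9 had 0 counts in both libraries and was at least 44.8-fold higher in the knockout, against a floor of 3 counts over the group.

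ANXA6 fell again in both rescues instead of returning towards WT. It was at 100.5 and 99.1 CPM in KO+STAMBP, against 114.7 to 119.7 CPM in the knockout, a log2 fold change of -0.45 ± 0.04 (adjusted p = 2.65e-08). In the libraries labelled KO+CFLAR it was at 94.4 and 92.8 CPM, a log2 fold change of -0.53 ± 0.04 against the knockout (adjusted p = 3.5e-09). Each rescue library lay below all 4 knockout libraries. With library size alone as the scaling these fold changes were -0.24 and -0.33, while the median of all genes moved to 0.25 and 0.24 and the higher share of called genes to 59.5% and 59.0%, against 51.5% and 51.3%.

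Set against WT, the rescues fell into 3 patterns. In KO+STAMBP, 2 annexins were called higher than WT (16.4% of all genes), 5 lower (18.5% of all genes) and 3 in neither direction, with a median log2 fold change of -0.07 over the 10. In the libraries labelled KO+CFLAR, 0 were called higher (15.8% of all genes), 5 lower (17.9% of all genes) and 5 in neither direction, with a median of -0.14. By edgeR's quasi-likelihood test 7 and 5 annexins had an unadjusted p under 0.05 in these comparisons, and DESeq2 called 7 and 5. Of all 21063 genes tested by edgeR, 8947 and 8754 had an unadjusted p under 0.05. DESeq2 called 5208 and 4984 of all genes. Both comparisons share the 2 WT libraries.

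The first pattern was a level below WT in both rescues, seen for ANXA1, ANXA5, ANXA6, ANXA7 and ANXA11. ANXA1 was at 21.5 and 21.8 CPM in KO+STAMBP and 16.2 and 15.6 CPM in the libraries labelled KO+CFLAR, against 44.7 and 49.4 CPM in WT. The log2 fold change against WT was -1.16 ± 0.06 (adjusted p = 3.98e-09) for KO+STAMBP and -1.59 ± 0.06 (adjusted p = 2.13e-10) for KO+CFLAR. ANXA6 was -0.93 ± 0.04 (adjusted p = 3.44e-10) and -1.01 ± 0.04 (adjusted p = 1.45e-10) on the same scale. ANXA6 was also below WT in the knockout, unlike the other annexins. ANXA5 was at 67.5 and 65.7 CPM in KO+STAMBP and 61.5 and 63.8 CPM in the libraries labelled KO+CFLAR, against 97.1 and 104.3 CPM in WT, with log2 fold changes of -0.63 ± 0.05 and -0.71 ± 0.05. ANXA11 was at 11.5 and 10.1 CPM and at 8.37 and 10.8 CPM, against 15.3 and 17.0 CPM in WT, with log2 fold changes of -0.62 ± 0.11 and -0.78 ± 0.11. No rescue library reached WT for either gene. ANXA7 was closer to WT, at -0.34 ± 0.07 (adjusted p = 0.0014) in KO+STAMBP and -0.28 ± 0.07 (adjusted p = 0.00582) in KO+CFLAR. The second of these ANXA7 calls was lost without KO+CFLAR replicate 1 (-0.22, adjusted p = 0.056) and without WT replicate 2 (adjusted p = 0.0661), and its adjusted p ran from 0.00113 to 0.0661 over the alternatives.

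The second pattern was a level at or slightly above WT, seen for ANXA2, ANXA3 and ANXA4. ANXA2 was at 84.1 and 88.3 CPM in KO+STAMBP and 70.0 and 78.4 CPM in the libraries labelled KO+CFLAR, against 73.7 and 72.5 CPM in WT. Both KO+STAMBP libraries were above WT by a little (log2 0.20 ± 0.05, adjusted p = 0.00595), while those labelled KO+CFLAR lay on either side of WT (0.00 ± 0.05, adjusted p = 1). ANXA3 was at 9.47 and 10.6 CPM in KO+STAMBP and 7.83 and 8.5 CPM in the libraries labelled KO+CFLAR, against 7.58 and 7.42 CPM in WT. The log2 fold change was 0.38 ± 0.10 (adjusted p = 0.00831) in KO+STAMBP and 0.10 ± 0.10 (adjusted p = 0.556) in KO+CFLAR. Without KO+STAMBP replicate 2 both calls were lost, with adjusted p = 0.0715 for ANXA2 and 0.109 for ANXA3, and the ANXA3 call was also lost without WT replicate 2 (adjusted p = 0.0553). Over the alternatives the adjusted p ran from 0.000107 to 0.0715 for ANXA2 and from 0.00453 to 0.109 for ANXA3. ANXA4 missed the threshold in both rescues, at 0.21 ± 0.13 (adjusted p = 0.243) and 0.10 ± 0.13 (adjusted p = 0.622). The third pattern was ANXA8 and ANXA9, with 0 to 3 counts in each rescue and WT library, where no difference from WT was detectable at this depth.

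**Figure D2:**
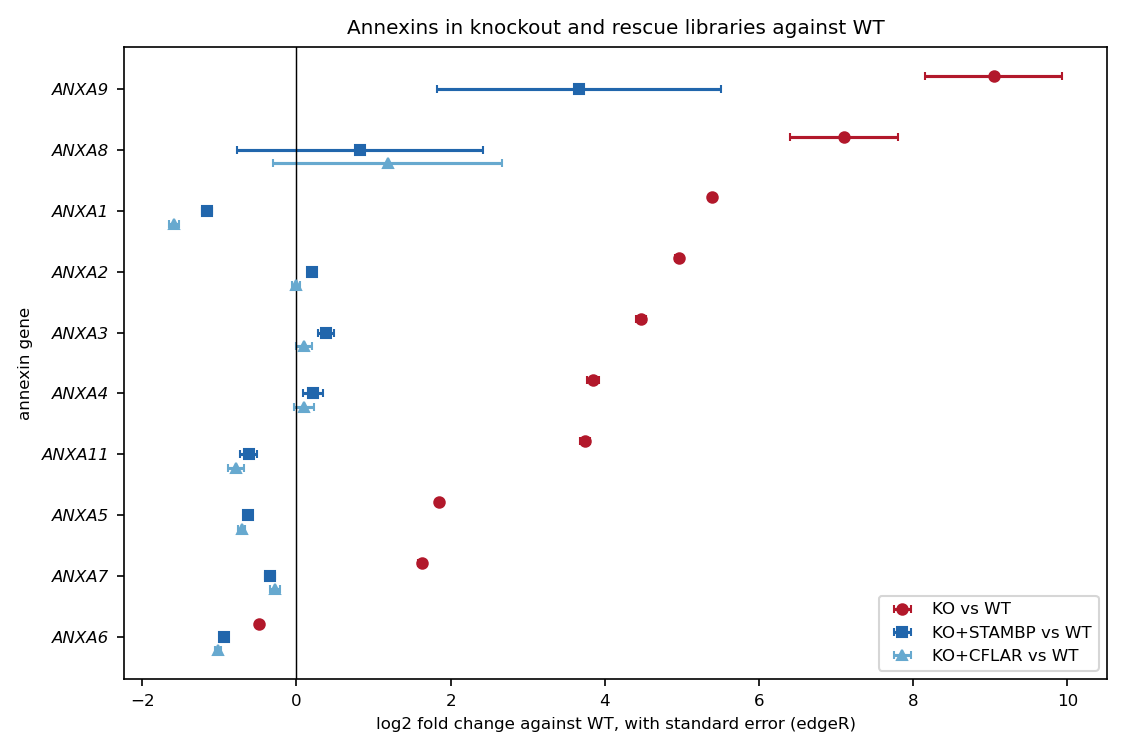
Log2 fold change against WT (horizontal axis) of each annexin in knockout, KO+STAMBP and KO+CFLAR libraries, with standard errors as bars. ANXA9 in KO+CFLAR is not drawn, since it had 0 counts there and in WT. The other ANXA9 points also rest on that WT group of 0 counts, so their size is not a measured fold change. All 3 comparisons share the 2 WT libraries, and the widest bars belong to ANXA8 and ANXA9, which had 1 and 0 counts over the WT group.

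The order of the groups followed from these levels. For ANXA1, ANXA5, ANXA7 and ANXA11 the knockout lines were highest, WT came next and the rescues were lowest. For ANXA2, ANXA3 and ANXA4 the knockout lines were followed by KO+STAMBP, KO+CFLAR and WT, with overlapping libraries between KO+CFLAR and WT for ANXA2 and ANXA4, and between KO+STAMBP and KO+CFLAR for ANXA4. ANXA6 ran from WT through KO2, KO1 and KO+STAMBP to KO+CFLAR, with no overlap of libraries between neighbours.

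KO1 and KO2 did not differ detectably in any annexin. The edgeR test called 0 of 10, against 0.133% of all genes called higher and 0.0237% called lower, with 0 at an unadjusted p under 0.05 and 0 by DESeq2. Among all genes, 1196 had an unadjusted p under 0.05 by edgeR and DESeq2 called 29. Log2 differences ran from -0.06 to 0.10 with adjusted p of 0.921 to 1. ANXA8 and ANXA9 had SEs of 0.37, and for the other 8 the SE was at most 0.06.

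Between the rescues, the libraries labelled KO+CFLAR had less ANXA1 than KO+STAMBP. The 2 libraries labelled KO+CFLAR, at 16.2 and 15.6 CPM, were both below the 2 KO+STAMBP libraries, at 21.5 and 21.8 CPM, with a log2 fold change of -0.43 ± 0.07 (adjusted p = 0.0131). ANXA1 was the 1 annexin called, against 0.461% of all genes called lower and 0.627% called higher; 57.6% of the called genes were higher, or 47.0% with library size alone. The ANXA1 call was lost without KO+STAMBP replicate 1 (adjusted p = 0.0901), without KO+STAMBP replicate 2 (0.133) and without KO+CFLAR replicate 1 (0.072), and its adjusted p ran from 7.99e-06 to 0.133 over the alternatives. ANXA2 missed the threshold, at -0.20 ± 0.05 (adjusted p = 0.0772, 0.00134 to 0.504 over the alternatives). DESeq2 called both ANXA1 and ANXA2 lower, among 209 genes that it called in either direction.

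Scaled by transcript length, the make-up of annexin RNA differed between groups. In the knockout ANXA2 was at 1391 CPM per kb and ANXA1 at 944.3 CPM per kb, which made up 48.9% and 33.2% of the annexin sum. ANXA5 came next, with 8.33%. In WT the leading annexins were ANXA6, at 87.6 CPM per kb or 33.1% of the sum, and ANXA5, at 73.9 CPM per kb or 28.0%. ANXA2 held 19.2% and ANXA1 9.58% there. In KO+STAMBP the shares were 31.1% for ANXA2, 25.4% for ANXA5, 24.5% for ANXA6 and 6.05% for ANXA1. In the libraries labelled KO+CFLAR they were 29.6%, 26.5%, 25.4% and 4.93% in the same gene order. These shares are descriptions without a test. Lengths were the median of the coding transcripts in GENCODE 29. The shares depended on the length used. With the merged exon length instead, ANXA1 led in the knockout with 45.9% and ANXA2 held 27.2%. ANXA2 then held 14.0% in KO+STAMBP, 13.0% under the KO+CFLAR label and 8.01% in WT, and in both rescues it stood behind ANXA5, ANXA6 and ANXA7. ANXA6 and ANXA5 kept the top 2 places in WT, with 33.1% and 32.1%.

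**Figure D3:**
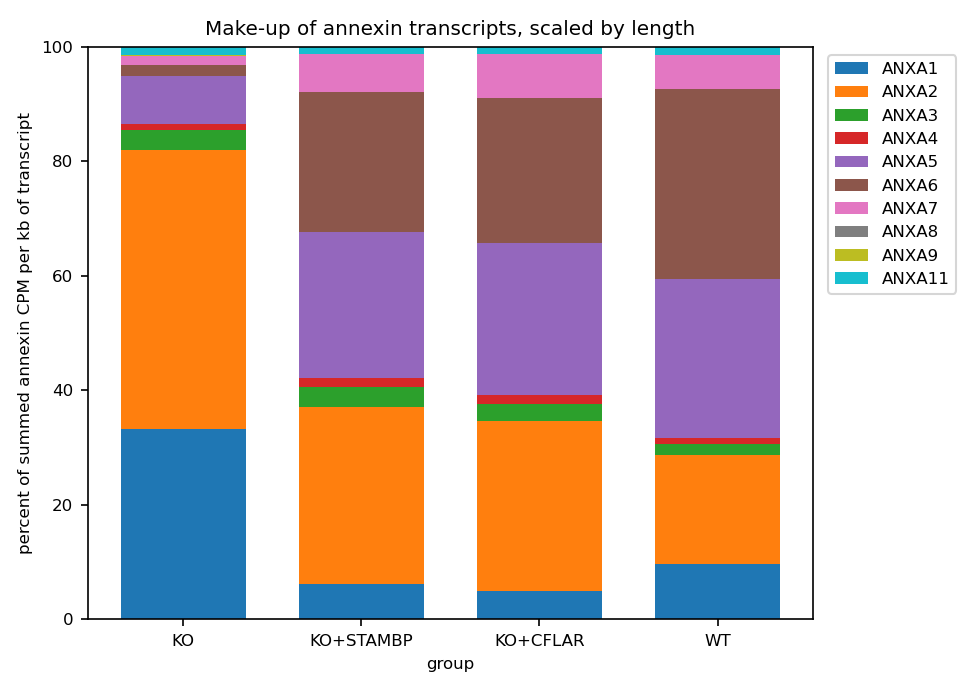
Share of each annexin in the summed annexin CPM per kb of transcript (vertical axis, percent) in the knockout, the rescues and WT. ANXA2 and ANXA1 make up 48.9% and 33.2% in the knockout, and ANXA6 and ANXA5 make up 33.1% and 28.0% in WT.

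Other rows of the annexin family were low. ANXA8L1, a near copy of ANXA8, was the 1 of 7 further annexin rows that passed the filter, with 352 counts in the knockout, 1 in KO+STAMBP, 5 under the KO+CFLAR label and 2 in WT. Its knockout to WT ratio was 88.9 (95% exact interval 24.4 to 736.9). The other 6 rows had 16 counts or fewer in any group: ANXA10, ANXA13, the pseudogenes ANXA2P1, ANXA2P2 and ANXA2P3, and ANXA2R, which encodes a proposed receptor of ANXA2. ANXA2P2 had 13 counts in the knockout and 0 in each other group. Reads could be split between copies: 76.9% of the 50-base windows of ANXA8 transcripts, 29.3% of those of ANXA2 and 0.30% of those of ANXA11 also occurred in transcripts of other genes, chiefly ANXA8L1 for ANXA8 and ANXA2P2 for ANXA2. The other 7 annexins shared 0 windows. With the copies added, the log2 fold change of the knockout against WT was 4.95 for ANXA2 and 6.84 for ANXA8, and both kept their calls.

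Each annexin was also matched to the genes whose profile over the 10 libraries was most like its own, by the root mean square difference of centred log2(CPM + 0.5) among 14404 genes. For ANXA1 the most similar gene was SPP1, the secreted phosphoprotein osteopontin, at 0.148, followed by the non-coding RNA gene LINC01036 at 0.24. For ANXA2 they were UBD, a ubiquitin-like modifier, at 0.107 and the cytokine IL1B at 0.119. UBD and IL1B averaged only 5.04 and 5.15 CPM over the 10 libraries, against 850.4 CPM for ANXA2. The added 0.5 shrinks log2 differences where levels are low, so these 2 matches need not share the fold change of ANXA2. ANXA3 matched PTPRE and DUSP10, both phosphatases, at 0.0826 and 0.0845. ANXA4 matched NIBAN2 and the autophagy receptor SQSTM1, at 0.0903 and 0.0911. ANXA5 had the closest match of all, the protease PRSS23 at 0.048, followed by WASF2, an actin regulator, at 0.0588. ANXA6 matched the adaptor GAB1 at 0.0652 and CUEDC1 at 0.066. ANXA7 matched the heat shock gene HSPA1A at 0.0547 and the actin regulator CAP1 at 0.0627. ANXA11 matched OSBPL3, a lipid-binding protein, at 0.0841 and NFKB2 at 0.105. ANXA8 was nearest to CLEC2A and SSXP10, at 0.12 and 0.135, and ANXA9 to TUFT1 and ENDOD1, at 0.11 and 0.122. ANXA8 and ANXA9 themselves averaged 1.71 and 1.33 CPM, so the added 0.5 shrank their own differences between groups. Their matches averaged 80.5, 20.4, 53.8 and 59.4 CPM in the same order, and a match here does not mean an equal fold change. All profiles come from the same 10 libraries.

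Known binding partners of annexins mostly rose with them. Of 16 listed, 13 were tested, and 10 were higher and 3 lower in the knockout than in WT, against 36.8% higher and 39.4% lower of all genes tested, with a median log2 fold change of 0.79 against -0.04 over all genes. S100A10, the partner of ANXA2, averaged 494.8 CPM in the knockout and 4.49 CPM in WT (log2 6.94 ± 0.08, adjusted p = 7.46e-18). The ratio of S100A10 to ANXA2 counts was not constant: there were 23.6 to 25.4 S100A10 counts per 100 ANXA2 counts in the knockout, 5.16 and 5.96 in KO+STAMBP, 5.02 and 5.55 under the KO+CFLAR label, and 5.43 and 6.87 in WT. S100A11, the partner of ANXA1, averaged 843 CPM in the knockout and 2.82 CPM in WT (log2 8.40 ± 0.11). AHNAK, a giant scaffold protein that binds the ANXA2 and S100A10 complex, averaged 1619 CPM in the knockout and 97.0 CPM in WT (log2 4.24 ± 0.05). S100A6 was also higher, at 174.6 CPM in the knockout against 4.10 CPM in WT. The 3 that fell were S100B, a marker of glia with 4 counts over the knockout libraries against 1161 over the WT libraries, SRI (log2 -0.88), which encodes the ANXA7 partner sorcin, and RACGAP1 (log2 -2.56), a regulator of cell division. The formyl peptide receptors FPR1, FPR2 and FPR3 did not pass the filter, with 28, 6 and 4 counts in the knockout against 0, 0 and 7 in WT.

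Genes of plasma membrane repair, in which several annexins take part, were higher in 15 of 17 cases and lower in 1 (all genes: 36.8% higher, 39.4% lower), with a median log2 fold change of 1.91. AHNAK, PDCD6 and PDCD6IP stand on both this list and that of the partners. MYOF, which encodes myoferlin, averaged 517 CPM in the knockout and 9.28 CPM in WT (log2 5.97 ± 0.05). The calpain gene CAPN2 averaged 961 CPM in the knockout and 111.4 CPM in WT, and the caveolin gene CAV1 99.9 CPM in the knockout and 3.20 CPM in WT. ANO5 was the 1 that fell (log2 -1.53), and TRIM72 did not pass the test (0.70, adjusted p = 0.0759). The flippases and scramblases that set phosphatidylserine exposure, the ligand of ANXA5, were higher in 7 of 12 cases and lower in 3 (median 1.08), beside 36.8% and 39.4% of all genes. The scramblase ANO6 averaged 213.9 CPM in the knockout and 51.4 CPM in WT (log2 2.23 ± 0.05). PLSCR1 averaged 137.1 CPM in the knockout and 9.91 CPM in WT. TMEM30A, the shared flippase subunit, averaged 542 CPM in the knockout and 229.6 CPM in WT (log2 1.42 ± 0.03). The flippase ATP8A1 was lower, at 9.28 CPM in the knockout and 57.3 CPM in WT (log2 -2.44 ± 0.08).

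Copines, another family of proteins that bind phospholipids in the presence of calcium, were split. Of 8 tested, 4 were higher and 4 lower in the knockout, close to the 36.8% and 39.4% of all genes, with a median of -0.86. Of those that rose, CPNE8 averaged 17.0 CPM in the knockout and 6.15 CPM in WT (log2 1.64 ± 0.10). CPNE5 averaged 0.723 CPM in the knockout and 14.6 CPM in WT (log2 -4.19 ± 0.17), and CPNE4 2.20 CPM in the knockout and 16.7 CPM in WT. CPNE6 had 1 count over the knockout libraries (0.013 CPM, below the floor) and averaged 4.79 CPM in WT. CPNE2, like ANXA6, was lower in the knockout and in both rescues than in WT, with 42.0 CPM in the knockout, 51.3 CPM in KO+STAMBP, 47.2 CPM in the libraries labelled KO+CFLAR and 172.5 CPM in WT. Its log2 fold change was -1.86 ± 0.04 in the knockout against WT, and neither rescue differed from the knockout by the test (0.08, adjusted p = 0.116 and -0.03, adjusted p = 0.52).

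Genes tied to ANXA1 and ANXA2 function were split. The list of phospholipases A2 and eicosanoid enzymes, some of which ANXA1 is known to restrain, had 5 higher and 4 lower of 9 (median 3.04), where 36.8% of all genes were higher and 39.4% lower. The cytosolic phospholipase gene PLA2G4A averaged 17.0 CPM in the knockout and 1.2 CPM in WT (log2 3.97 ± 0.17). PTGS2, the inducible cyclooxygenase, averaged 277 CPM in the knockout and had 3 counts over the WT libraries (0.081 CPM, below the floor). PTGES averaged 128.8 CPM in the knockout and 0.967 CPM in WT (log2 7.26 ± 0.12). ALOX5, the lipoxygenase of leukotriene synthesis, averaged 47.6 CPM in the knockout and also had 3 counts over the WT libraries (0.086 CPM, below the floor). Those that fell included PTGS1, the constitutive cyclooxygenase, at 0.469 CPM in the knockout and 7.95 CPM in WT (log2 -3.92 ± 0.22), and PLA2G6, a calcium-independent phospholipase, at 6.60 CPM in the knockout and 19.4 CPM in WT. In the plasminogen list 4 were higher and 2 lower of 7 tested (median 5.27), against the same 36.8% and 39.4% of all genes. The urokinase gene PLAU averaged 2568 CPM in the knockout and 2.38 CPM in WT (log2 10.25 ± 0.06), and its receptor PLAUR 205.8 CPM in the knockout and 5.97 CPM in WT. The inhibitor gene SERPINB2 was also higher, at 239.5 CPM in the knockout, against 0.319 CPM in WT. Among 8 genes of the glucocorticoid receptor and its common targets, 5 were higher and 2 lower (median 1.73; all genes 36.8% and 39.4%). The risers included SGK1 at 91.0 CPM in the knockout and 9.77 CPM in WT, and TSC22D3 at 49.3 CPM in the knockout and 18.8 CPM in WT. DUSP1, a phosphatase of MAP kinases, averaged 112.6 CPM in the knockout and 16.6 CPM in WT, and the transcription factor gene KLF9 23.9 CPM in the knockout and 2.02 CPM in WT. FKBP5, a classic glucocorticoid target that encodes a chaperone of the receptor, fell, with 9.32 CPM in the knockout and 24.4 CPM in WT (log2 -1.22 ± 0.12).

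**Figure D4:**
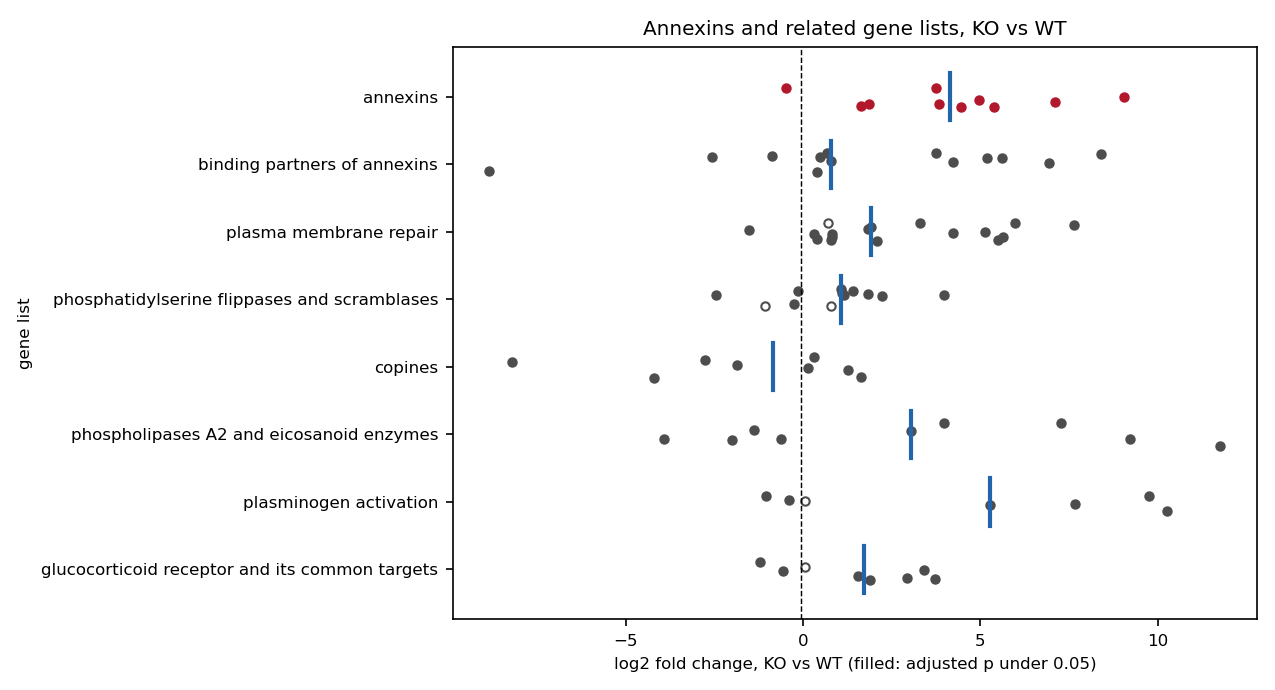
Log2 fold change of the knockout against WT (horizontal axis) for the annexins and each related gene list; each point is a gene, filled where the adjusted p was under 0.05, and the dashed line is the median of all tested genes. The annexins have a median of 4.16 and 1 gene below the line, while the copines lie on both sides of it.

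Against the knockout, KO+STAMBP had 10 lower and 3 higher of 13 binding partners, 15 lower and 1 higher of 17 repair genes, and 8 lower and 4 higher of 12 flippases and scramblases. The eicosanoid list had 5 lower and 3 higher of 9, the plasminogen list 5 lower and 2 higher of 7, the glucocorticoid list 6 lower and 1 higher of 8, and the copines 3 lower and 3 higher of 8. Over all genes 37.8% were lower and 40.1% higher in that comparison. In the libraries labelled KO+CFLAR the counts were the same except for the repair genes, with 14 lower and 1 higher, beside 38% lower and 40% higher over all genes. S100A10 averaged 4.78 CPM in KO+STAMBP and 3.91 CPM in the libraries labelled KO+CFLAR, and PLAU 1.70 and 1.48 CPM. SGK1 did not return to WT: it averaged 28.2 CPM in KO+STAMBP and 24.1 CPM under the KO+CFLAR label, with log2 fold changes against WT of 1.5 ± 0.08 and 1.28 ± 0.09.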

How the data were processed

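The authors deposited whole-number counts per gene for 10 libraries, without normalization. Tools in the submitters' processing notes are RSEM 1.2.4, fastp 0.20.0 and DESeq2, with the builds hg38 and GRCh38, and no role is given for them. The annotation release and strand setting are not given in the sources used here. Libraries held 16495116 to 20832700 counts. From these counts, edgeR 4.0.16 (R 4.3.3) fitted a quasi-likelihood model with TMM factors and 1 mean per group over all 10 libraries, with 5 residual degrees of freedom. After filterByExpr, 21063 genes remained, and a call is an adjusted p (Benjamini-Hochberg, over all of them) under 0.05. KO is the mean of KO1 and KO2. Levels are CPM of the library total without TMM factors, as mean ± SD; SE is the size of the log2 fold change over the root of F. Intervals and floors cover counting error only.

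The members and lists were chosen with earlier results of these data known. The text names all members, STAMBP and CFLAR, all further annexin rows, up to 4 genes of each list (lowest adjusted p), and the 2 most similar genes per member; S100B, SRI, RACGAP1, ANO5, TRIM72, CPNE8, PTGS1, PLA2G6, FKBP5 and FPR1 to FPR3 were named with their values in view. Some genes of these lists are not reported here. Gene positions are those of GENCODE 29 (GRCh38) and promoters those of RefSeq (GRCh38.p14), which matched 9 of 10 members. The fit was tested on simulated counts. Alternatives were DESeq2 1.42.0, median-of-ratios factors, library size alone, no filter, a filter of 50 counts in 2 libraries, a replicate block, leaving out each library, the compared groups alone, each knockout line alone, added copies of ANXA2 and ANXA8, and, added after the data were seen, a fit without the libraries labelled KO+CFLAR.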

Additional observations from a re-analysis of the deposited data

Results flagged for a closer look

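ANXA1 differed between the rescues by a test of the difference itself. It was at 16.2 and 15.6 CPM in the libraries labelled KO+CFLAR and at 21.5 and 21.8 CPM in KO+STAMBP, a log2 fold change of -0.43 (adjusted p = 0.0131 by edgeR's quasi-likelihood test). The call was lost without KO+STAMBP replicate 1 (adjusted p = 0.0901), without KO+STAMBP replicate 2 (0.133) or without KO+CFLAR replicate 1 (0.072), and held over the other alternatives run, from 7.99e-06 to 0.0494. Both groups were below WT and far below the knockout.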

How the results depend on the processing

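Over the alternatives, 1279 single values were recomputed: 1266 kept their side of the threshold, 8 no longer passed it and 5 newly passed it. Where either the main fit or the alternative made a call, 0 reversed direction. Direction was not compared where neither made a call, and some of those values changed sign. For ANXA8 in KO+STAMBP against WT, the log2 fold change ran from -2.30 to 3.15. Of 387 recomputed counts, 371 stayed within 1.5 times. With each library left out in turn, the annexins higher in KO+STAMBP than in WT numbered 0 to 3 (2 with all libraries). For KO+CFLAR against KO+STAMBP, 2 annexins were lower with DESeq2, with no filter and with the replicate block, and 0 to 2 with a library left out (1 otherwise). All genes called there numbered 780 with no filter and 27 to 313 with a library left out (229 otherwise). For KO1 against KO2 they were 251 and 20 to 58 (33 otherwise). Where a library was left out, the lone library of its group was taken to vary like the other groups. Replicate numbers did not pair the libraries, since the correlations of replicate differences between groups ran from -0.0209 to 0.0719, and the block changed no annexin call against WT or the knockout. ANXA9 in KO+STAMBP against WT, with 0 and 3 counts, passed the threshold without KO+STAMBP replicate 1 (log2 4.63, adjusted p = 0.0494), and ANXA2 passed it in KO+CFLAR against KO+STAMBP with DESeq2, with no filter, with the block and without KO+CFLAR replicate 2 (adjusted p = 0.00134 to 0.0381). The cause was not tested. With 2 libraries a group and counts of 0 to 3 in a library, depth limits what can be said of ANXA8 and ANXA9 outside the knockout.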
